A study of Mus musculus with 8 samples.

Results

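Genes for 9 subunits of Polycomb repressive complex 1 (PRC1) were followed in WT and Dido1∆E16 mice: Bmi1, Ring1, Rnf2, Cbx2, Cbx7, Cbx8, Pcgf6, Phc1 and Rybp. They were chosen by name, and all 9 had values among the 11871 genes tested in pre-B cells. Transcript levels came from RNA-seq of sorted pre-B cells, and chromatin accessibility from ATAC-seq of sorted LSK cells (lineage-negative, Sca1+, cKit+ hematopoietic progenitors), with 2 libraries per genotype in each assay. Each member's transcript level is the sum over its transcripts in TPM (a level scaled by transcript length and by the total of the library), and its accessible regions are the peaks that the authors' annotation gives to it. The experimental mice were Dido1 flE16/∆E16;R26R-EYFP;iCre-Vav1 and the controls, labelled wild type, were littermates described as Dido1 flE16/+;R26R-EYFP;iCre-Vav1, all on the C57BL/6 strain. The controls therefore also carry the Cre transgene, the reporter and a floxed allele. The Vav1 promoter drives Cre in hematopoietic cells, so exon 16 of Dido1, the last exon of the Dido3 isoform, is removed in the blood lineages. The floxed allele of the controls is open to the same removal, and the study speaks of heterozygous controls. The comparison is therefore not with cells in which both Dido1 alleles are known to be intact. The labels give no age. The study's methods place the animals of all experiments within a single stated range of weeks of age, with sex and age matched in each. It describes the mice of both assays as male and of different ages. The RNA libraries were made from pools of mice, so p-values measure the spread between pools.

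PRC1 is a family of complexes that attaches a single ubiquitin to histone H2A and compacts chromatin at silent genes. Every PRC1 complex holds Ring1 or Rnf2, the catalytic RING-type ubiquitin ligases, paired with 1 of the Pcgf proteins, of which Bmi1 and Pcgf6 are members. Canonical complexes add a Cbx protein, which binds the histone mark laid down by PRC2, and a Phc protein, which joins complexes to each other. Variant complexes carry Rybp or its relative Yaf2 in place of Cbx. In the blood system Bmi1 is known for the self-renewal of stem cells, and Cbx7 and Cbx8 for opposite roles in keeping and leaving the stem cell state.

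The sequences below are the promoters where the accessibility data differ most between members, and the Cbx7 region that carried a MACS2 peak in both WT libraries alone. Promoters were read from RefSeq (GRCm38.p6, the mm10 build of the files) from 250 bases before to 50 bases after the start, 5′ to 3′ on the strand of the gene, and CG dinucleotides are in capitals. RefSeq entries were found for 7 of the 9 genes, without Cbx2 and Rybp. The Rnf2 promoter (chr1:151500942-151501241, minus strand) and the Cbx8 promoter (chr11:119040864-119041163, minus strand) were overlapped by a MACS2 peak in each of the 4 LSK libraries. The Cbx7 promoter (chr15:79932597-79932896, minus strand) was overlapped in WT replicate 2 only, and the Ring1 promoter (chr17:34024631-34024930, minus strand) in none. The last sequence is the region in intron 2 of Cbx7 (chr15:79927689-79927966, shown on the minus strand).
Rnf2: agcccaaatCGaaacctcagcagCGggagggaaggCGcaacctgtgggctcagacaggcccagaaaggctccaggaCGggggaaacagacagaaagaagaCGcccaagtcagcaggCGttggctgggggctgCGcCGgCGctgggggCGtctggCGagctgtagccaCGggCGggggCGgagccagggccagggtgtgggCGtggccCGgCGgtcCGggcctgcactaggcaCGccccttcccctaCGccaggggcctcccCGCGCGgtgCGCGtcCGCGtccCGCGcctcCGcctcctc
Cbx8: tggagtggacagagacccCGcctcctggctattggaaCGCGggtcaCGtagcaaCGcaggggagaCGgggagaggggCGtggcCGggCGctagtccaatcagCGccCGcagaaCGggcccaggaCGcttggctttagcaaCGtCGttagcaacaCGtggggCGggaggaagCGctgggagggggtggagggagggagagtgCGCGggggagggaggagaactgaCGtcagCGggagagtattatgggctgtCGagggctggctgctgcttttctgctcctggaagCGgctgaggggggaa
Cbx7: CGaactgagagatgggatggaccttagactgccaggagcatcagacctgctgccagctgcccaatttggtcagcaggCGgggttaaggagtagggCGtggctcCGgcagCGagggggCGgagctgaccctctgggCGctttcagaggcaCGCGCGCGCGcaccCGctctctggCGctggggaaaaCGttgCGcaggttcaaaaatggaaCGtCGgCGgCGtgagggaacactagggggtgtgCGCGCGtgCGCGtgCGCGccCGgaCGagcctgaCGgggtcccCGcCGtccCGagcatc
Ring1: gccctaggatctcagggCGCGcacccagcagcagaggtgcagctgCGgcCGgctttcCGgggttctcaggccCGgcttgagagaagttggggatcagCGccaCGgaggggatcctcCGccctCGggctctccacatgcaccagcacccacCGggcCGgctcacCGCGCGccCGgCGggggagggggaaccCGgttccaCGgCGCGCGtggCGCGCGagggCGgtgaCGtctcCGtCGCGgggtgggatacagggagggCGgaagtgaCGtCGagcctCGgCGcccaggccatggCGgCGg
Cbx7 intron 2: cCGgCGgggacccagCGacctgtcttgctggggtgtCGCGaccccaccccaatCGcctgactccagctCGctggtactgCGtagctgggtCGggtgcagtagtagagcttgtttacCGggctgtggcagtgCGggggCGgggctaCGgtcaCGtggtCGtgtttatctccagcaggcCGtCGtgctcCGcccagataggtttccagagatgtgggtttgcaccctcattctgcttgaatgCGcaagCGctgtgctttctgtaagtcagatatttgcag

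The promoters without a peak in most libraries were as rich in CG dinucleotides as those with one. The Rnf2 window holds 30 CG sites, the Cbx8 window 24, the Cbx7 window 33 and the Ring1 window 37, against a median of 7 over 32817 RefSeq promoter windows of the same 300 bases. Fewer CG sites than in Ring1 were found in 94.4% of these windows. The other windows held 23 sites for Bmi1, 22 for Pcgf6 and 9 for Phc1. The motif GGGCGG, searched on both strands, occurs in 6 of the 7 member promoters and in 35.6% of all windows. CCAAT occurs in 2 of the 7 (Cbx7 and Cbx8) and in 37.4% of all windows. Neither CCGGAAGT nor TTTNNCGC occurs in any member window, and they occur in 3.89% and 5.16% of all windows. Both strands were searched for each motif, and none of these 4 motifs contains another. The Cbx7 intron 2 region has 20 CG sites in 278 bases. This was more than in 72.5% of the 26327 regions shared by the WT libraries, cut to the same length, of which the median was 7. It holds 1 match of AGATAA on either strand, found in 9.08% of those regions, and no match of TGTGGT (24.5%) or GGAAGT (32.7%), the latter being part of CCGGAAGT.

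The libraries differed in depth and in the cells they held. Summed exon coverage of the pre-B libraries was between 1121.1 and 1635.3 Mb. The LSK libraries had between 10249256 and 52050898 tags and between 13208 and 57739 MACS2 peaks, with the most of both in WT replicate 2. Among the other LSK libraries the number of peaks did not follow the tags. WT replicate 1 had the fewest tags, 10249256, but 27352 peaks. Dido1∆E16 replicate 1 had 22533077 tags but 13208 peaks. Dido1∆E16 replicate 2 had 44633938 tags but 16329 peaks. Coverage of Dido1 exon 16, scaled to TPM, was 24.6 and 21.8 in the WT pre-B libraries and 0.295 and 0.0843 in the Dido1∆E16 ones, which matches the labels. Summed over its transcripts, however, Dido1 was at 44.3 and 46.0 TPM in WT and at 81.6 and 87.2 TPM in Dido1∆E16 libraries (log2 fold change 0.89, SE 0.13, limma adjusted p = 0.191). The part that the sharing of reads between transcripts had in this sum was not tested. The 12 markers of pro-B and large pre-B cells summed to 1880 and 761 TPM in WT and to 3380 and 2490 TPM in Dido1∆E16 libraries. Neutrophil and monocyte markers summed to 260, 2370, 1160 and 10500 TPM, and erythroid markers to 340, 953, 759 and 8790 TPM, in the order WT replicates 1 and 2, then Dido1∆E16 replicates 1 and 2. The parts that these cells had in the member levels were not tested, and in bulk samples fewer cells of a type and less RNA per cell cannot be told apart. In LSK cells, the genes Kit, Cd34, Flt3 and Meis1, which progenitors use, had a MACS2 promoter peak in all 4 libraries.

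No PRC1 subunit passed the test for a difference between genotypes in pre-B cells. Cbx7 was higher in both Dido1∆E16 libraries, by 0.84 on the log2 scale, and came closest to the threshold. Both catalytic subunits were lower in both Dido1∆E16 libraries, Ring1 by 0.69 and Rnf2 by 0.35 on the log2 scale. Log2(TPM + 1) was fitted with limma, and a gene was called at a Benjamini-Hochberg adjusted p under 0.05 over all genes with a log2 difference of 0.6 or more in either direction. By this rule 0 of 9 members and 6 of 11871 genes (0.0505%) were called, and the count over all genes moved between 0 and 87 with the processing. At an unadjusted limma p under 0.05 the count was 1 member, Cbx7, against 11.7% of all genes. Levels of 3 members lay lower in both Dido1∆E16 libraries than in either WT library (15.6% of all genes), and levels of 2 members lay higher (27.1% of all genes). The median log2 fold change was -0.014 over the 9 members and 0.069 over all genes tested. The summed level of the members was 308 and 293 TPM in WT and 319 and 308 TPM in Dido1∆E16 libraries, so the totals of the groups overlapped.

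**Figure D1:**
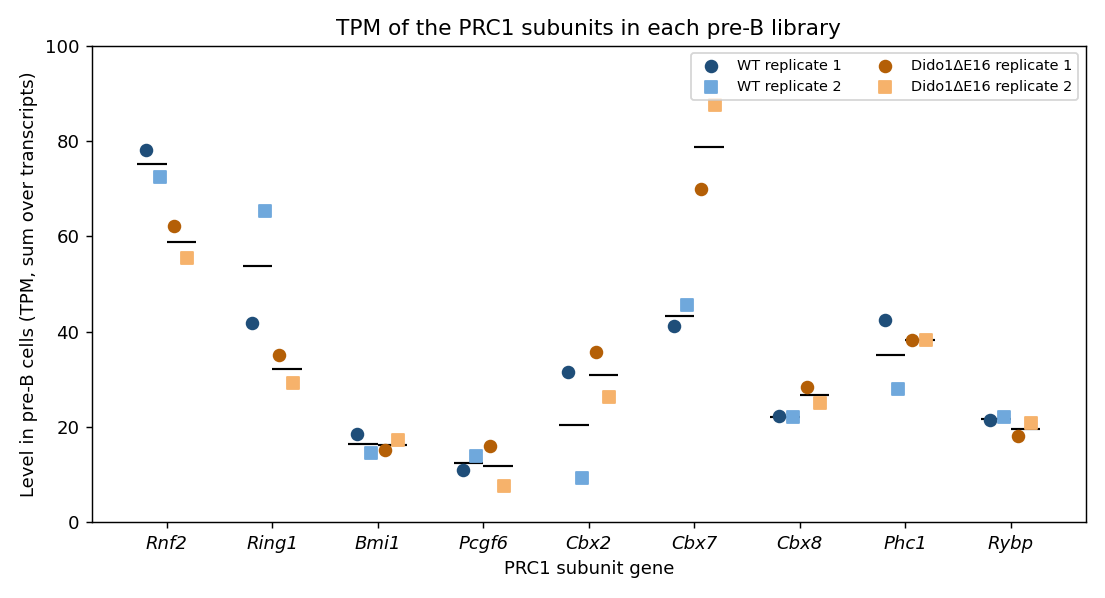
Level of each PRC1 subunit gene (x axis) in TPM (y axis) in the 4 pre-B libraries. Points are libraries and short black lines are the means of the 2 libraries of a genotype. Cbx7 sits higher and Rnf2 and Ring1 sit lower in both Dido1∆E16 libraries, while WT replicate 2 stands apart for Cbx2 at 9.19 TPM.

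Rnf2 encodes Ring1b, the ligase that carries most of the ubiquitin transfer to H2A in many cell types. Its level was 78.1 and 72.4 TPM in WT and 62.2 and 55.4 TPM in Dido1∆E16 libraries, and the groups did not overlap. The log2 fold change was -0.35 (SE 0.14, limma adjusted p = 0.467). StringTie gave its whole level to transcript uc007cyy.1 (chr1:151469406-151500823, minus strand, mm10) and listed transcript uc007cyx.1 at 0. However, exon 2 of uc007cyy.1 from the 5′ end (184 bases), which uc007cyx.1 lacks, had a coverage of 0 in all 4 libraries. Which of these transcripts the reads came from is therefore uncertain. The difference was not even along uc007cyy.1. The last exon had a scaled coverage of 68.6 and 68.7 in WT against 50.9 and 45.1 in Dido1∆E16 libraries, whereas the first exon had 60.0 and 56.1 against 67.4 and 57.3, which overlapped. Of its 8 exons, 2 were lower in both Dido1∆E16 libraries, none was higher in both and 6 overlapped, including the exon at 0.

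Ring1 encodes Ring1a, the paralogous ligase, and spans chr17:34020792-34024680 on the minus strand. Its level was 41.9 and 65.4 TPM in WT and 35.1 and 29.3 TPM in Dido1∆E16 libraries. The WT libraries differed from each other (SD 16.6 TPM) more than the nearest libraries of the 2 genotypes did. The log2 fold change was -0.69 (SE 0.27, limma adjusted p = 0.458). Without WT replicate 2 it was -0.38, and without WT replicate 1 it was -1.01. Of the 7 exons, 4 were lower in both Dido1∆E16 libraries and 3 overlapped. Exon 4 counted from the 5′ end had a scaled coverage of 67.2 and 100 in WT against 50.3 and 44.8 in Dido1∆E16 libraries. Together the ligases summed to 120 and 138 TPM in WT and to 97.3 and 84.7 TPM in Dido1∆E16 libraries, a sum chosen after the values were seen. Rnf2 stood above Ring1 in all 4 libraries, with a ratio of their TPM levels of 1.86 and 1.11 in WT and of 1.77 and 1.89 in Dido1∆E16 libraries.

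Bmi1 and Pcgf6, the Pcgf subunits that set which kind of complex a ligase joins, were the members with the lowest mean levels, although Cbx2 was lowest in WT replicate 2. Bmi1 (uc008ily.1, chr2:18677018-18686629, plus strand) defines a canonical complex. Its level was 18.5 and 14.6 TPM in WT and 15.2 and 17.3 TPM in Dido1∆E16 libraries, which overlapped (log2 fold change -0.014, SE 0.22, limma adjusted p = 0.988). Its coverage lay mostly on the last exon, at 22.3, 19.2, 17.1 and 22.5 in the 4 libraries. The 40-base exon 7 had 0 in both WT libraries and 1.42 and 2.16 in Dido1∆E16 libraries. Reads were aligned with BWA-MEM, which does not join reads across introns, and the part of this in the low coverage of the inner exons was not tested. Pcgf6 defines the variant complex that also holds Mga, L3mbtl2 and E2f6. Its level was 11.0 and 13.9 TPM in WT and 16 and 7.71 TPM in Dido1∆E16 libraries. The Dido1∆E16 libraries enclosed both WT values (log2 fold change -0.13, SE 0.40, limma adjusted p = 0.927).

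**Figure D2:**
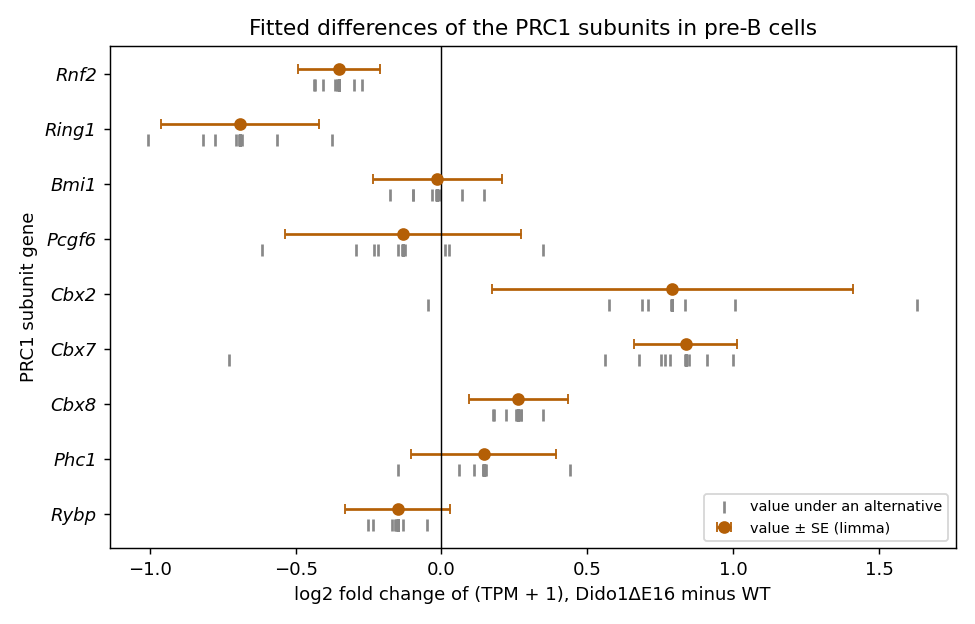
Log2 fold change of TPM + 1, Dido1∆E16 minus WT (x axis), for each PRC1 subunit gene (y axis). Circles with bars are the limma values with their SE, and grey ticks are the same quantity under each alternative processing, including each left-out library. Ring1 and Rnf2 stay below 0 and Cbx8 stays above 0 at every tick, while Cbx7 has a single tick below 0, at -0.73, which is its transcript with the highest mean TPM taken alone.

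Cbx7, a chromodomain protein known for its place in stem and lymphoid cells, was the member with an unadjusted limma p under 0.05. Its level was 41.2 and 45.7 TPM in WT and 69.9 and 87.7 TPM in Dido1∆E16 libraries. Both Dido1∆E16 libraries lay above both WT libraries (log2 fold change 0.84, SE 0.18, limma adjusted p = 0.250). StringTie gave these reads to different transcripts in different libraries. Transcript uc007wux.1 (chr15:79915813-79932646, minus strand, 5935 bases) held 41.2, 45.7 and 69.9 TPM in the first 3 libraries and 9.14 TPM in Dido1∆E16 replicate 2. Transcript uc007wuv.1 (chr15:79915807-79932646, 2893 bases) was listed at 0 in those 3 libraries and at 78.5 TPM in Dido1∆E16 replicate 2. The sum in that library therefore rests on a shorter transcript. The 3 exons that both transcripts share (309 bases) had a scaled coverage of 46.1 and 40.0 in WT against 67.8 and 59.9 in Dido1∆E16 libraries. On these exons the groups also did not overlap, with a log2 fold change of 0.56 (SE 0.16, limma adjusted p = 0.318), in a comparison added after the data were seen. Along Cbx7 lie 4 short opposite-strand transcripts without a symbol, at between 0 and 7.59 TPM, and whether the counting used strand is not given in the sources used here.

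Cbx8 and Cbx2, the other chromodomain members, lie next to each other on chromosome 11. Cbx8 (uc007mpu.1, chr11:119038436-119040913, minus strand) was at 22.2 and 22 TPM in WT and at 28.4 and 25.1 TPM in Dido1∆E16 libraries. The groups did not overlap, but the difference did not pass the test (log2 fold change 0.26, SE 0.17, limma adjusted p = 0.643). Only the last of its 5 exons was higher in both Dido1∆E16 libraries, at 20.1 and 20.5 in WT against 30.1 and 25.9 in Dido1∆E16 libraries. That exon holds 1084 of the 1393 bases of the transcript and so sets its TPM. Exon 2 from the 5′ end was lower in both, at 44.5 and 42.5 against 25.8 and 22.5, as was exon 1, at 20.7 and 20.5 against 16.8 and 14.3. The direction of Cbx8 therefore depended on the exon read.

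Cbx2 (uc007mpt.2, chr11:119023021-119031275, plus strand) varied among the WT replicates. Its level was 31.6 and 9.19 TPM in WT and 35.7 and 26.2 TPM in Dido1∆E16 libraries, so WT replicate 2 was low and the other 3 libraries lay between 26.2 and 35.7 TPM. The log2 fold change was 0.79 (SE 0.62, limma adjusted p = 0.683), and it was -0.047 without WT replicate 2. All 5 exons were lowest in WT replicate 2. Mki67, a marker of dividing cells, was also lowest there, at 228 and 25.0 TPM in WT and 86.3 and 139 TPM in Dido1∆E16 libraries, and the part of this in the Cbx2 level was not tested. The sum of the 3 Cbx members was 95.0 and 76.8 TPM in WT and 134 and 139 TPM in Dido1∆E16 libraries, again a sum chosen after the values were seen. Cbx7 made up 43.4% and 59.4% of it in WT against 52.2% and 63.1% in Dido1∆E16 libraries, which overlapped.

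**Figure D3:**
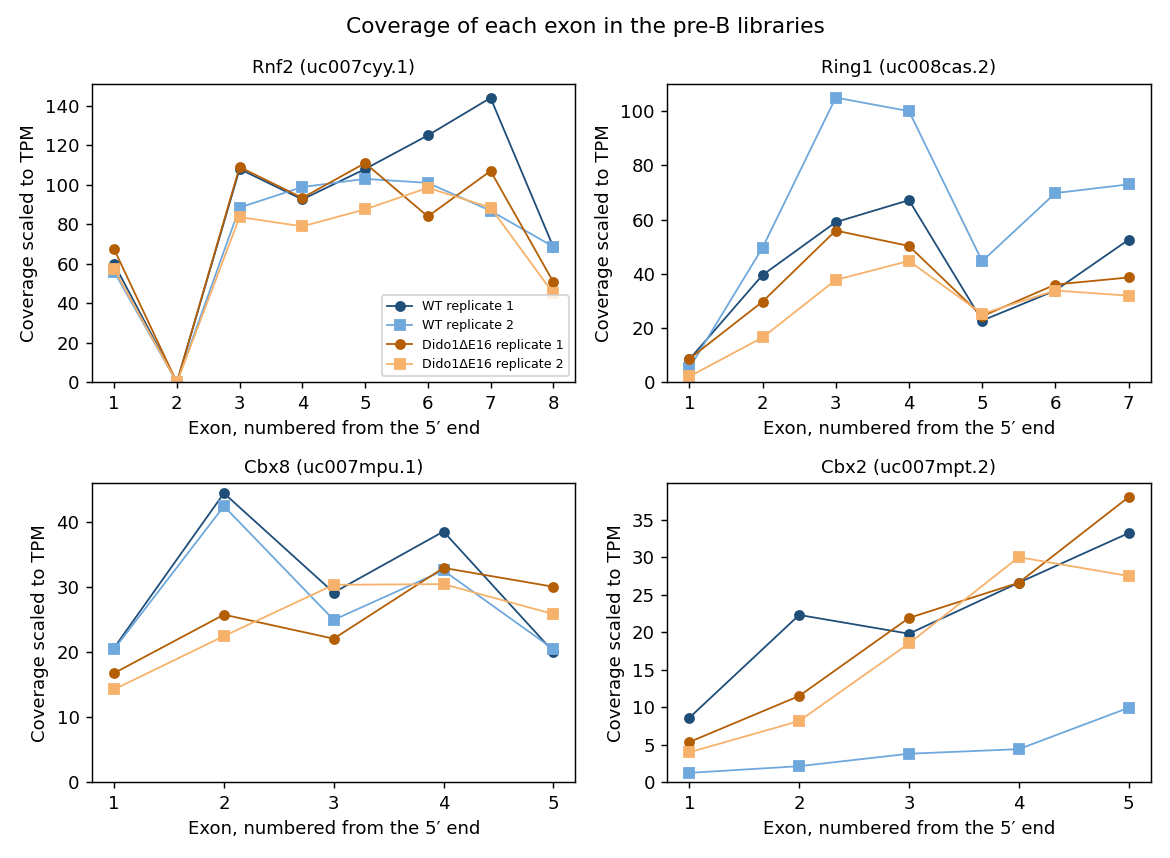
Coverage of each exon scaled to TPM (y axis) against the exon number from the 5′ end (x axis) for Rnf2, Ring1, Cbx8 and Cbx2 in the 4 pre-B libraries. Lines join the exons of a library. In Rnf2 the genotypes part at the last exon, in Cbx8 they cross between exon 2 and exon 5, and in Cbx2 only WT replicate 2 stands apart.

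Phc1 and Rybp, which mark canonical and variant complexes, differed little. Phc1 (uc009doz.1, chr6:122317731-122338864, minus strand), which encodes a SAM-domain protein that links complexes into chains, was at 42.5 and 27.9 TPM in WT and at 38.2 TPM in both Dido1∆E16 libraries. The Dido1∆E16 values lay between the WT values (log2 fold change 0.14, SE 0.25, limma adjusted p = 0.865). Rybp (uc009dbw.1, chr6:100228565-100287358, minus strand), which encodes a ubiquitin-binding subunit, was at 21.4 and 22 TPM in WT and at 18.1 and 20.9 TPM in Dido1∆E16 libraries. The groups did not overlap, but the gap between them was under 1 TPM and the log2 fold change was -0.15 (SE 0.18, limma adjusted p = 0.789). It was -0.05 without Dido1∆E16 replicate 1 and -0.25 without Dido1∆E16 replicate 2.

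By summed TPM, Rnf2 stood first in both WT libraries and Cbx7 in both Dido1∆E16 libraries. On the exons common to a gene's transcripts, Cbx7 (67.8 and 59.9) and Rnf2 (62.2 and 55.4) overlapped in the Dido1∆E16 libraries. By mean TPM in WT the order was Rnf2 (75.3), Ring1 (53.7), Cbx7 (43.4), Phc1 (35.2), Cbx8 (22.1), Rybp (21.7), Cbx2 (20.4), Bmi1 (16.5) and Pcgf6 (12.4). Neighbours whose library values did not overlap were Rnf2 and Ring1, Phc1 and Cbx8, and Bmi1 and Pcgf6, and the other neighbours overlapped. In Dido1∆E16 libraries the order was Cbx7 (78.8), Rnf2 (58.8), Phc1 (38.2), Ring1 (32.2), Cbx2 (30.9), Cbx8 (26.8), Rybp (19.5), Bmi1 (16.3) and Pcgf6 (11.9). There the overlapping neighbours were Ring1 and Cbx2, Cbx2 and Cbx8, and Bmi1 and Pcgf6. Among all tested genes the members stood between the 30.3 percentile (Pcgf6) and the 72.2 percentile (Rnf2) of mean TPM. Each member was also matched to the gene nearest in pattern among the 17 other PRC1 subunits tested, by Euclidean distance of centred log2(TPM + 1) over the 4 libraries. Rnf2 was nearest to Fbrs at a distance of 0.0664, Phc1 to Kdm2b at 0.0686, Bmi1 and Rybp to Yaf2 at 0.109 and 0.182, and Cbx8 to Mga at 0.219. Cbx7 was at 0.494 from Mga, Ring1 and Pcgf6 were at 0.569 and 0.654 from Fbrs, and Cbx2 was at 0.700 from E2f6. The median distance of a member to the 17 genes was between 0.324 (Bmi1 and Phc1) and 1.16 (Ring1).

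Of the other Polycomb genes, none was called either. Among 20 other PRC1 subunits, 17 were tested, none was called and the median log2 fold change was 0.066. The exception at an unadjusted limma p under 0.05 was Fbrs, a subunit of the variant complexes with Pcgf3 and Pcgf5, which also had the highest TPM of the list. It was at 240 and 230 TPM in WT and at 192 and 165 TPM in Dido1∆E16 libraries (log2 fold change -0.40, SE 0.13, adjusted p = 0.384). All 12 PRC2 subunits were tested and none was called, with a median log2 fold change of 0.040. Epop, a PRC2 cofactor, was at 8.94 and 8.18 TPM in WT and at 14.1 and 15.2 TPM in Dido1∆E16 libraries (limma adjusted p = 0.353). Phf1, which recruits PRC2, was at 46.7 and 57.3 TPM against 38.6 and 34.9 TPM (limma adjusted p = 0.421). Ezh2, the PRC2 methyltransferase and the highest of the list, was at 482 and 206 TPM against 353 and 290 TPM and was lowest in WT replicate 2, as Cbx2 was. Of 7 enzymes and cofactors that remove ubiquitin from H2A, 6 were tested and none was called, with a median of 0.057, and the highest was Usp7 at 165, 124, 150 and 153 TPM. Of 16 genes known to be held silent by PRC1, 10 were listed at 0 in every library and 4 were tested, with a median of 0.73 and none called. Of these 4, 2 were higher in both Dido1∆E16 libraries (27.1% of all genes) and 1 was lower in both (15.6% of all genes). Cdkn1a, a cell cycle inhibitor and the highest of the 16, was at 30.6 and 12.2 TPM in WT and at 52.0 and 36.0 TPM in Dido1∆E16 libraries (limma adjusted p = 0.506). It was therefore not silent in the WT libraries either.

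In LSK cells the promoters of Rnf2, Cbx8 and Phc1 carried a MACS2 peak in all 4 libraries, and Ring1 carried none in any. A peak here is a region that MACS2 called as accessible in a single library, and promoters reach from 1 kb before to 200 bp after a start in the authors' annotation. The 9 members had 35 MACS2 peaks in WT replicate 2, 11 in WT replicate 1, and 8 and 6 in the Dido1∆E16 libraries, so WT replicate 2 stood apart. Scaled to the number of peaks in each library, the genotypes overlapped. A MACS2 promoter peak was found in 4 and 8 of the 9 members in WT and in 6 and 3 in Dido1∆E16 libraries. Over 26153 genes of the annotation the share with a MACS2 promoter peak was 36.0% and 46.4% in WT and 29.0% in both Dido1∆E16 libraries. HOMER, a second peak caller, gave a promoter peak to 5 and 8 members in WT and to 6 and 8 in Dido1∆E16 libraries. In Dido1∆E16 replicate 2 these included Cbx2, Cbx7 and Rybp, which had no MACS2 promoter peak there.

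**Figure D4:**
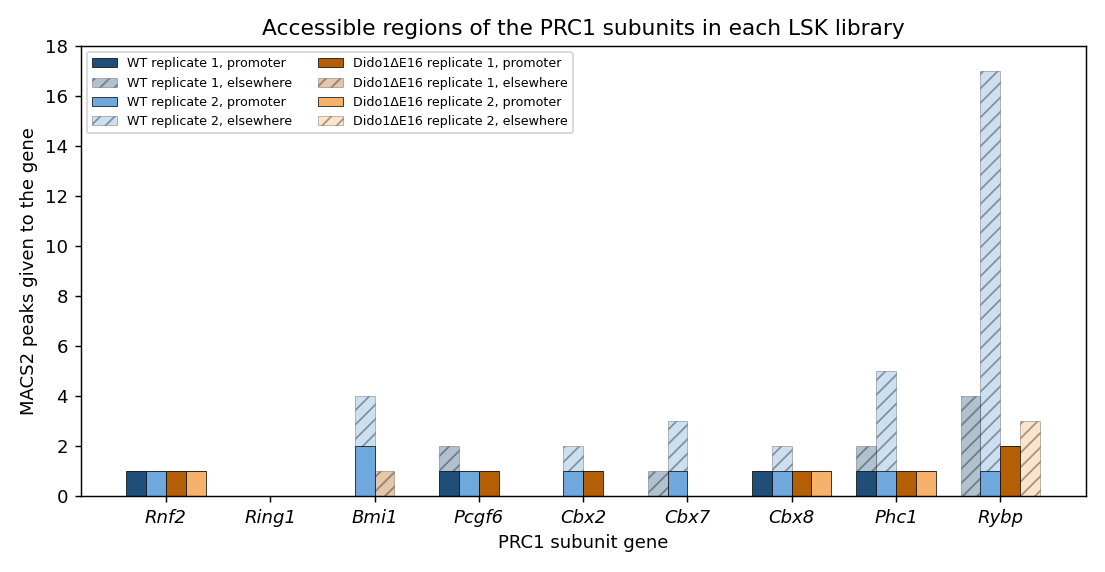
MACS2 peaks given to each PRC1 subunit gene (x axis) as a count (y axis) in the 4 LSK libraries. Solid bars are promoter peaks and hatched bars are peaks elsewhere. WT replicate 2, the library with the most peaks, has 17 peaks at Rybp, while Rnf2, Cbx8 and Phc1 have a promoter peak in every library.

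For 3 of 9 members, Cbx7, Phc1 and Rybp, each Dido1∆E16 library held fewer MACS2 peaks than each WT library. The same order was seen in 35.6% of the 17769 genes with a peak. Without WT replicate 1, the shallower WT library, the count was 6 of 9 members, against 74.6% of genes with a peak. Cbx7 had 1 and 3 peaks in WT and 0 in both Dido1∆E16 libraries. Phc1 had 2 and 5 peaks in WT and 1 in each Dido1∆E16 library. At Rybp the WT libraries had 4 and 17 peaks, and the Dido1∆E16 libraries 2 and 3. When each library gave its 13208 best-scoring peaks, 0 members showed this order, against 7.16% of the genes with such a peak. With HOMER, the other peak caller, it was seen in 2 members, Phc1 and Rybp (19.5% of genes with a HOMER peak), and at Cbx7 the WT libraries had 1 and 4 peaks, and the Dido1∆E16 libraries 0 and 6. With 2 libraries against 2 an exact two-sided permutation test cannot go below 0.333, so no p is given.

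Of the ligase genes, Rnf2 alone had MACS2 peaks. Its promoter peak had a deposited MACS2 score, a number whose definition is not given in the sources used here, of 64 and 180 in WT against 87 and 44 in Dido1∆E16 libraries. At Ring1, HOMER called a peak just downstream of the start in Dido1∆E16 replicate 2 (chr17:34024249-34024493), outside the window printed above. It called another inside that window in WT replicate 2 (chr17:34024821-34024971), which the authors' annotation gives to Mir219c. For Bmi1, MACS2 called promoter peaks in WT replicate 2 only, at chr2:18676406-18676637 and chr2:18677063-18677418, whereas HOMER called a Bmi1 promoter peak in each of the 4 libraries. A MACS2 peak in intron 1 of Bmi1 was found in WT replicate 2 and in Dido1∆E16 replicate 1. The promoter of Commd3, the gene just upstream of Bmi1, had a MACS2 peak in all 4 libraries, with scores of 45 and 128 in WT against 58 and 35 in Dido1∆E16 libraries. Pcgf6 had a MACS2 promoter peak in both WT libraries and in Dido1∆E16 replicate 1, with scores of 19, 63 and 26, and none in Dido1∆E16 replicate 2.

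The Cbx8 promoter, shown above, scored 42 and 73 in WT against 29 and 32 in Dido1∆E16 libraries. Scores were not compared between libraries, since the score of 73 was not among the 13208 best-scoring peaks of WT replicate 2 while both Dido1∆E16 scores were among those of their libraries. The Cbx2 promoter had a MACS2 peak in WT replicate 2 and in Dido1∆E16 replicate 1, with scores of 24 and 46. The Rybp promoter had 1 MACS2 peak in WT replicate 2 and 2 in Dido1∆E16 replicate 1. In Phc1 the promoter peak of Dido1∆E16 replicate 1 (chr6:122339362-122339561) did not overlap that of WT replicate 1 (chr6:122339988-122340284). The MACS2 peak of WT replicate 2 (chr6:122338950-122340788) spanned both, and the HOMER peaks of the former 2 libraries overlapped.

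Of the regions that carried a MACS2 peak in both WT libraries, 11 belonged to members. No Dido1∆E16 peak overlapped 5 of these by at least 1 bp, against 11500 of 26327 WT regions over the genome (43.7%). Without WT replicate 1 it was 25 of 35 member regions (71.4%) against 69.9% of all regions, and without Dido1∆E16 replicate 2 it was 8 of 11 (72.7%) against 57.9%. All 4 promoter regions among them were overlapped by a peak of at least 1 Dido1∆E16 library, and over the genome 15.0% of the WT promoter regions were not. The 5 regions were in intron 2 of Cbx7 (chr15:79927689-79927966), in exon 1 of Pcgf6 (chr19:47050348-47050489), in intron 2 of Rybp (chr6:100271982-100272306), downstream of Rybp (chr6:100170664-100170944) and upstream of Phc1 (chr6:122368283-122368611). In the Cbx7 region the MACS2 scores were 30 and 50 in the WT libraries. HOMER called a peak in that region in both WT libraries and in Dido1∆E16 replicate 2 (chr15:79927788-79927938). The other 4 regions had no HOMER peak in either Dido1∆E16 library. The region upstream of Phc1 had scores of 44 and 132 in WT and was among the 13208 best-scoring peaks of both WT libraries. The Rybp intron region scored 37 and 55, the Rybp downstream region 12 and 45, and the Pcgf6 exon region 25 and 63. This Pcgf6 exon region and the Pcgf6 promoter region lie in the same peak of WT replicate 2 (chr19:47050348-47051079), which has the score of 63. They are therefore not separate sites in that library.

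The remaining 6 regions were met by a Dido1∆E16 peak. Those of Rnf2 and Cbx8 were met in both Dido1∆E16 libraries. The promoter region of Pcgf6 was met in Dido1∆E16 replicate 1 only. The promoter region of Phc1 and the Rybp regions at chr6:100163063-100163621 and chr6:100365942-100366141 were met in Dido1∆E16 replicate 2 only. The distal Rybp region at chr6:100163063-100163621 had the highest score among the shared regions of members, 219 in WT replicate 2, with 53 in WT replicate 1 and 38 in Dido1∆E16 replicate 2.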

How the data were processed

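Pre-B RNA-seq (2 WT and 2 Dido1∆E16 libraries) and LSK ATAC-seq (2 and 2) were analysed. The study's methods speak of 3 ATAC-seq replicates, and the 2 that carry labels were used. The members and the gene lists were chosen with earlier results of these data known.

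For RNA-seq the authors aligned reads to mm10 with BWA 0.7.15 per the labels, removed duplicates and ran StringTie on UCSC known genes. For each transcript the authors deposited TPM, FPKM and coverage, with coverage also for each exon but no read counts, so limma on a log scale took the place of the authors' edgeR test. Symbols came from the authors' files (30124 of 63753 transcripts). Other genes' transcripts were named by at least 50% exonic overlap with GENCODE M21 on the same strand (26256). TPM was summed per gene, genes with a mean of at least 1 TPM were kept, and log2(TPM + 1) was fitted by genotype with limma 3.58.1 in R 4.3.3 (eBayes with trend, no block). To scale exon coverage to TPM, it was multiplied by the median over transcripts of TPM divided by coverage. The fit was tested on simulated data.

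For ATAC-seq MACS2 and HOMER peaks were called by the authors in single libraries and annotated with ChIPseeker. Each deposited MACS2 peak has a score, whose definition is not given in the sources used here, and the deposited HOMER files a constant score. Read totals per library were taken from the header of a deposited table. Overlaps were taken with bedtools 2.31.1, leaving out peaks off the autosomes and sex chromosomes. The authors' own fold changes and p-values were not used. Peak lists hold no read counts, so they were compared without a test.

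Named genes were the 9 members, and from each other list those with an unadjusted limma p under 0.05 (at most 4) and that with the highest TPM. Dido1, Mki67 and the accessible LSK markers are given as checks, and Mki67 was chosen after its values were seen. Tables were made with Python 3.11.15, pandas 2.3.3 and samtools.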

Additional observations from a re-analysis of the deposited data

How the results depend on the processing

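No member was called under any of the 14 other fits across genes, and limma adjusted p over all alternatives was between 0.217 and 0.843 for Cbx7. The count of all genes called moved from 6 to 0 with a pseudocount of 0.1, with no filter on low values and with a replicate block, to 87 without a trend, and to 0 when any library was left out. Samples of the same number do not share a stated origin, their deviations correlated at 0.047 over genes, and only 2 pairs exist, so the replicate block was not the main fit. With it 0 members were called. Cbx7 was at -0.73 when its transcript with the highest mean TPM was fitted alone, because reads moved to another transcript in Dido1∆E16 replicate 2. Pcgf6 was at 0.011 on the exons common to its transcripts. Leaving out each library gave log2 fold changes from -0.17 to 0.15 for Bmi1, from -0.62 to 0.35 for Pcgf6, from -0.047 to 1.63 for Cbx2, from -0.15 to 0.44 for Phc1 and from -0.25 to -0.05 for Rybp. Members with fewer peaks in both Dido1∆E16 libraries numbered 3, against 35.6% of genes with a peak. They numbered 0 among the best-scoring peaks (7.16% of genes), 1 within 5 kb of the gene span (30.2%) and 2 with HOMER (19.5%). When a library was left out they numbered between 3 and 6. The count of 6 was without WT replicate 1, where 74.6% of genes with a peak had this order. WT-shared regions without a Dido1∆E16 peak numbered 5 of 11, against 43.7% of all regions. They numbered 1 of 3 among the best-scoring peaks (13.3% of all regions) and 7 of 16 with HOMER (29.3%). Within 5 kb of the gene span they numbered 3 of 8 (43.7%). When a library was left out they numbered between 5 and 25. Without WT replicate 1 it was 25 of 35, where 69.9% of all regions lacked one. Without Dido1∆E16 replicate 2 it was 8 of 11, where 57.9% did. The exons common to all transcripts and both other ways of pairing symbols were chosen after seeing the data. The cause of these changes was not tested. The LSK libraries differed in tags and in peaks called, and 2 libraries per genotype limit the tests.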

Other observations

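The marker lists behind the checks of the pre-B libraries held no called gene by limma. Of the 12 markers of pro-B and large pre-B cells, 6 had an unadjusted limma p under 0.05, against 11.7% of all genes. All 6 were higher in both Dido1∆E16 libraries, as were 27.1% of all genes. The remaining markers of this list overlapped between the genotypes, among them Mki67. The median log2 fold change was 1.43 over the list. Vpreb1, a surrogate light chain gene, was at 108 and 40.9 TPM in WT against 1220 and 738 TPM in Dido1∆E16 libraries, and Vpreb2, its paralog, was at 27.1 and 8.76 TPM against 382 and 168 TPM, and reads shared by these near copies make both values uncertain. Erg, a transcription factor of early progenitors, was at 13.4 and 7.06 TPM against 114 and 88.8 TPM, and Kit, a growth factor receptor, was at 1.63 and 0.599 TPM against 9.74 and 9.06 TPM. The 8 small pre-B cell markers had a median of -0.21 and were led by Spib at 2710, 2780, 2210 and 2550 TPM. The 8 B lineage markers had a median of 0.076 and were led by Vpreb3 at 4520, 5390, 5820 and 5720 TPM.

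Mature B cell markers had a median of -0.20, with Cd37 the highest at 1930, 2300, 1850 and 1820 TPM and Fcer2a at 65.6, 63.6, 29.1 and 46.7 TPM. Plasma cell markers had a median of -0.42, with Mzb1 the highest at 685, 847, 1020 and 989 TPM and Sdc1 at 121, 102, 64.4 and 57.0 TPM. Of 9 T and NK cell markers 5 were at 0 in every library, the list summed to between 4.55 and 26 TPM with a median of 0.64, and Klrb1c was the highest at 6.92, 3.30, 7.22 and 7.37 TPM. Neutrophil and monocyte markers had a median of 2.27, led by S100a9 at 72.8, 699, 353 and 2610 TPM. Erythroid markers, of which 6 of 8 had a value, had a median of 2.05, led by Hba-a2 at 244, 738, 548 and 7020 TPM, with Car2 at 39.2, 28.9, 78.0 and 105 TPM and Slc4a1 at 0, 2.15, 5.35 and 46.8 TPM. Of 10 LSK markers 5 were at 0 in every pre-B library and 3 were tested, with a median of -1.68, and Ly6a was the highest at 22.3, 13.7, 6.11 and 0 TPM. Kit, given above, is also on this list and went the other way, at 1.63, 0.599, 9.74 and 9.06 TPM. It was the only marker of this list with an unadjusted limma p under 0.05.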
